A study of Mus musculus with 48 samples.

Results

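The comparison described here is skin of mice given an antibody against the IL-15 receptor beta chain (il15rb) against skin of mice given phosphate-buffered saline by intraperitoneal injection (PBS ip), both at week 5. It rests on 7 of the series' 48 arrays, 3 of il15rb and 4 of PBS ip, chosen by title and week. The array titled PBS ip replicate 1 was left out because its treatment label, IL15, goes against its title. All arrays are of whole skin of C3H/HeJ mice, and the series concerns prevention of mouse alopecia areata with inhibitors of the IL-15 pathway. Titles give week 5, while the labels of the weeks of treatment read 5/6. The il15rb arrays carry the treatment label IL15, and that the agent is a blocking antibody given to test whether it prevents disease is known from the study rather than from the labels. Sham arrays of the same week, 4 in number, gave the background level, and 3 il15rb and 3 PBS ip arrays of week 13 were read for the same genes in other arrays. The labels give neither age, sex, dose and injection schedule nor how disease was started, and the series' text calls the replicates biological without saying how many animals each array holds.

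IL-15 is a cytokine that keeps memory CD8+ T cells, natural killer cells and some gamma delta T cells alive and arms them. It is held on the surface of one cell by the IL-15 receptor alpha chain and presented to a neighbour that carries the beta chain (Il2rb, shared with the IL-2 receptor) and the common gamma chain, which signal through JAK1, JAK3 and STAT5. In C3H/HeJ mice, alopecia areata can be transferred with skin grafts from affected animals, and cytotoxic CD8+ T cells that carry NKG2D gather around the hair follicle. Interferon gamma from such cells drives the chemokines CXCL9 and CXCL10, immunity-related GTPases and antigen presentation genes in surrounding skin cells.

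The 7 arrays had similar ranges of signal, with upper quartiles between 8.47 and 8.64 on the log2 scale. Pairs of arrays within a group correlated over all probe sets at 0.9901 to 0.9962 and pairs between the groups at 0.9887 to 0.9949. The array PBS ip replicate 5 stood apart in genes of the sex chromosomes: Xist, the RNA that silences one X chromosome in females, was 7.01 there and 12.27 to 13.36 on the other 47 arrays, and the Y-linked gene Uty was 6.65 there and 4.15 to 5.15 elsewhere. RNA quality moved with the groups: the 3' minus 5' difference of the Gapdh control probe sets was 0.38 to 0.46 in il15rb, 0.13 to 0.27 in PBS ip and 0.24 to 0.65 in sham. The same difference for beta-actin was 0.97 to 1.25 in il15rb and 0.85 to 0.97 in PBS ip. These differences touch every result of the comparison, and their part in it was not tested.

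At week 5 the genes called lower in il15rb skin were Cd247, Cd3g and Cd7 of the T cell receptor list, Nkg7 and Ctsw of cytotoxic granules, the natural killer receptor Klrd1, Cxcr6, Trgv4, the death ligand Tnfsf10 and the antiviral gene Ddx60. With the spread taken from all 47 grouped arrays, limma called 10 of 13650 genes lower at an adjusted p under 0.05, which is 0.0733% of the genes tested, and 0 higher (0.0%). At an unadjusted p under 0.05 there were 384 lower genes (2.81%) and 165 higher ones (1.21%). With the spread taken from the week 5 arrays alone (il15rb, PBS ip and sham), limma called 50 lower (0.366%) and 2 higher (0.0147%), 9 of the genes being shared with the first fit. Without any test, 587 genes (4.3%) were lower on all 3 il15rb arrays than on all 4 PBS ip arrays, and 488 (3.58%) were higher on all 3. Without PBS ip replicate 5 these counts were 685 lower and 720 higher, so that the larger number changed side. The median log2 change over all genes was 0.006. In whole skin, fewer cells of a type and less RNA per cell cannot be told apart, and this holds for every gene below.

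**Figure D1:**
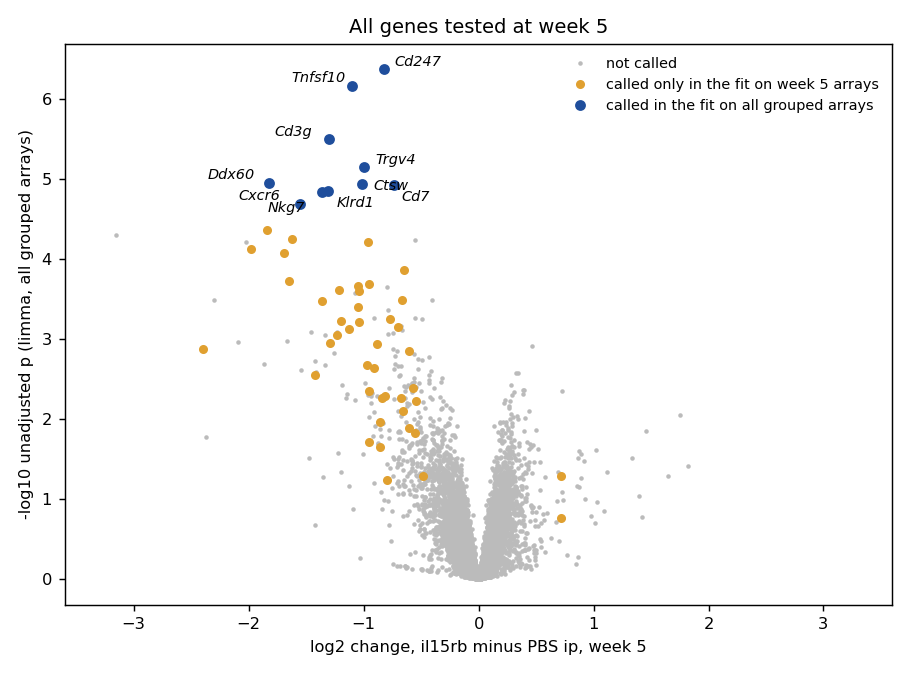
Log2 change of il15rb against PBS ip at week 5 (x axis) against the negative log10 of the unadjusted p from limma over all grouped arrays (y axis), 1 point per gene tested. The 10 genes called by that fit (blue) and the genes called only with week 5 arrays (orange) lie to the left, apart from 2 orange points to the right.

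The calls leaned on single arrays. Leaving out il15rb replicate 1, 2 or 3 left 1, 0 or 3 genes called by the fit over all grouped arrays, and leaving out PBS ip replicate 2, 3, 4 or 5 left 7, 2, 14 or 3. Without PBS ip replicate 5, the array with low Xist, Cd247 (-0.81, adjusted p = 0.0212, limma) and Tnfsf10 (-1.19, adjusted p = 0.00762) kept their calls, and the other 8 of the 10 had adjusted p-values of 0.0516 to 0.0818. In the fit on week 5 arrays alone the same omissions gave 23, 16 or 25 and 96, 30, 41 or 32 genes in place of 52. The arrays of the 2 groups did not overlap for any of the 10 genes, so leaving out 1 array could not turn the sign of a change.

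The T cell receptor list gave 3 of the 10 calls, Cd247 and Cd3g of the receptor complex and the surface glycoprotein Cd7. Cd247, the zeta chain that carries the receptor's signal, was 6.35, 6.18 and 6.36 in il15rb and 7.13, 7.13, 7.03 and 7.19 in PBS ip. The arrays did not overlap, and each group was tight, with means of 6.29 ± 0.10 (SD, n = 3) and 7.12 ± 0.06 (SD, n = 4). Cd247 fell by 0.83 ± 0.13 (SE) on the log2 scale, 1.77-fold (adjusted p = 0.00465, limma over all grouped arrays). Its probe set used here had the highest mean, and the other probe sets of the gene changed by -0.18, -0.04 and -0.32.

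Cd3g, the gamma chain of the CD3 module, was 7.87, 8.23 and 7.91 in il15rb and 9.16, 9.43, 9.20 and 9.43 in PBS ip. The highest il15rb array lay well below the lowest PBS ip array. Cd3g fell by 1.30 ± 0.24 (SE), 2.47-fold (adjusted p = 0.0145, limma). Cd7, a surface glycoprotein of T and natural killer cells, was 7.63, 7.35 and 7.33 in il15rb and 7.96, 8.25, 8.16 and 8.33 in PBS ip. Its gap of 0.32 between the groups was the smallest among the 10 genes, and it fell by 0.74 ± 0.15 (SE), 1.67-fold (adjusted p = 0.0217, limma).

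Of 18 tested genes of the T cell receptor list, 15 had a negative change. Of the 18, 7 were lower on every il15rb array than on every PBS ip array, against 4.3% of all genes. Calls numbered 3 over all grouped arrays and 5 with week 5 arrays alone. The list's median log2 change was -0.33. The 2 members called only with week 5 arrays were Cd3d, the CD3 delta chain, and Cd2, an adhesion receptor of T cells. In that fit Cd3d changed by -0.95 ± 0.12 (SE, adjusted p = 0.00951, limma) and Cd2 by -0.65 ± 0.09 (SE, adjusted p = 0.0119). Cd3e, the CD3 epsilon chain, was 7.53, 7.44 and 7.43 in il15rb and 8.08, 7.67, 8.17 and 7.93 in PBS ip, separated on every array but not called (-0.49, adjusted p = 0.213, limma over all grouped arrays). The coreceptors did not separate the groups. Cd8a, the coreceptor chain of cytotoxic T cells, was 7.97, 7.66 and 7.51 in il15rb and 7.84, 7.78, 7.39 and 7.56 in PBS ip, a change of 0.07 ± 0.19 (SE, adjusted p = 1.0) whose sign turned in 5 of the other settings. Cd4, the coreceptor of helper T cells, changed by -0.07 ± 0.11 (SE, adjusted p = 1.0), with overlapping arrays.

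**Figure D2:**
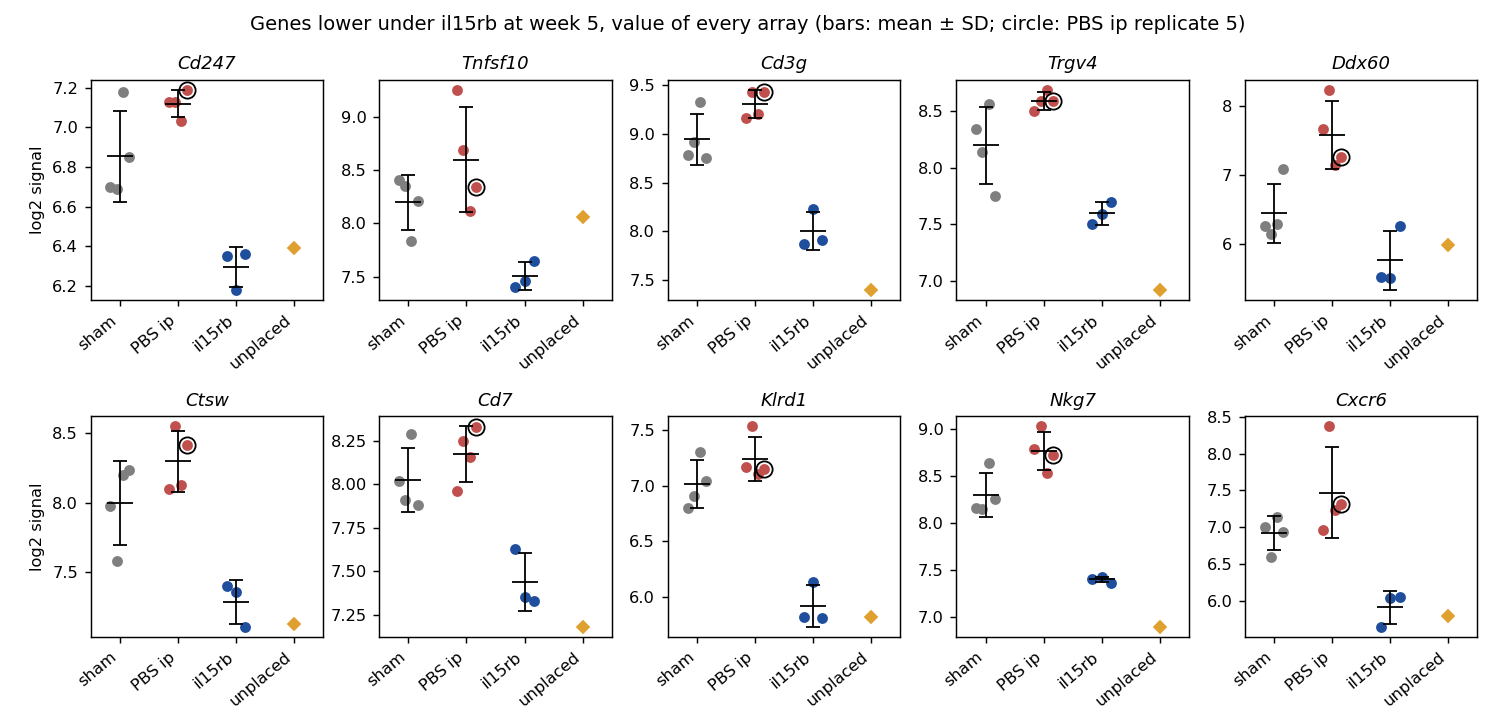
Log2 signal (y axis) of the 10 genes called lower at week 5, 1 point per array in sham, PBS ip, il15rb and the array with conflicting labels, with mean and SD as bars and a circle on PBS ip replicate 5. In each panel the 3 il15rb arrays lie below the 4 PBS ip arrays, by 0.32 (Cd7) to 1.09 (Nkg7) between the nearest arrays.

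Cytotoxic granule genes held 2 further calls. Nkg7, a granule membrane protein needed for release of granule content, was 7.41, 7.43 and 7.37 in il15rb and 8.79, 9.03, 8.53 and 8.73 in PBS ip. The il15rb arrays were nearly identical, and the gap of 1.09 to the lowest PBS ip array was the widest of the 10. Nkg7 fell by 1.36 ± 0.27 (SE), 2.57-fold (adjusted p = 0.0217, limma over all grouped arrays). Ctsw, cathepsin W of T and natural killer cell granules, was 7.40, 7.36 and 7.11 in il15rb and 8.10, 8.55, 8.13 and 8.42 in PBS ip. The groups were again apart, and Ctsw fell by 1.01 ± 0.20 (SE), 2.02-fold (adjusted p = 0.0217, limma).

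Of 9 tested granule genes, 8 had a negative change and 6 were lower on every il15rb array, against 4.3% of all genes, with a median of -0.70. Prf1, the pore-forming protein perforin, was 6.88, 6.95 and 6.55 in il15rb and 7.56, 7.53, 7.47 and 7.42 in PBS ip. Its change was -0.70 in both fits, called only with week 5 arrays (adjusted p = 0.0166, against 0.237 over all grouped arrays, limma). Gzmc, granzyme C, was 4.77, 5.19 and 4.56 in il15rb, near the background of the arrays, and 7.03, 6.04, 7.11 and 7.31 in PBS ip. Its change of -2.03 ± 0.45 (SE) was among the 10 largest falls by the rule for naming, and the adjusted p was 0.0527 (limma over all grouped arrays). Serpinb9, which shields cytotoxic cells from their own granzyme B, changed by -0.73 (adjusted p = 0.422) and Srgn, the proteoglycan that packs granules, by -0.58 (adjusted p = 0.565), both without overlap. Gzmb, granzyme B itself, was 6.47, 6.53 and 6.47 in il15rb and 6.65, 6.98, 6.41 and 6.26 in PBS ip, and its arrays overlapped (-0.08 ± 0.38 SE, adjusted p = 1.0).

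Among natural killer receptors, which T cells can also carry, Klrd1 (CD94, the partner of NKG2 chains) was called. It was 5.82, 6.14 and 5.81 in il15rb and 7.17, 7.53, 7.10 and 7.15 in PBS ip. The gap between the nearest arrays of the groups was 0.96, and Klrd1 fell by 1.31 ± 0.26 (SE), 2.49-fold (adjusted p = 0.0217, limma over all grouped arrays). Klrb1f, a C-type lectin of the Nkrp1 family, was 5.95 to 5.99 in il15rb and 6.43 to 6.72 in PBS ip and fell in the fit on week 5 arrays (-0.61, adjusted p = 0.0086, limma). Hcst (DAP10), the adaptor through which NKG2D signals, was 7.25, 7.20 and 7.03 in il15rb and 7.44, 7.91, 7.32 and 7.44 in PBS ip, apart by a narrow margin and not called (-0.36, adjusted p = 1.0). Of 10 tested members 9 were negative and 7 were below every PBS ip array, against 4.3% of all genes. Over all grouped arrays 1 was called and with week 5 arrays 2, and the median was -0.37. Klrk1, the gene of NKG2D, lay near the background in il15rb (5.12 to 5.18) and between 5.41 and 5.91 in PBS ip. The natural killer cell markers Ncr1, Klrb1c, Klre1 and Eomes were too low to be tested.

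Genes of skin-resident and gamma delta T cells gave a further pair of calls. Cxcr6, a chemokine receptor of resident memory T cells, was 5.65, 6.04 and 6.05 in il15rb and 6.97, 8.37, 7.23 and 7.31 in PBS ip. PBS ip replicate 3 was the highest array, and the remaining 3 were still above every il15rb array. Cxcr6 fell by 1.56 ± 0.32 (SE), 2.94-fold (adjusted p = 0.0277, limma over all grouped arrays). Trgv4, a variable segment of the T cell receptor gamma chain, was 7.50, 7.59 and 7.70 in il15rb and 8.50, 8.59, 8.69 and 8.59 in PBS ip. Spread within each group was small, and Trgv4 fell by 0.99 ± 0.19 (SE), 1.99-fold (adjusted p = 0.0217, limma), although segments of this family are alike in sequence and can share signal. It was the only call among 4 tested genes of the gamma delta list, whose median was -0.02. Itgae, the integrin CD103 that tethers T cells to epithelium, was 7.52, 8.09 and 7.95 in il15rb and 8.80, 9.21, 8.66 and 8.89 in PBS ip, and it fell in the fit on week 5 arrays (-1.04, adjusted p = 0.0147, limma). Of 9 residency and homing genes, 3 were lower without overlap, against 4.3% of all genes. Calls numbered 1 over all grouped arrays and 2 with week 5 arrays, and the median was -0.20.

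The receptor chain and its ligand did not pass the test. Il2rb, the gene of the targeted chain, was 5.92, 6.18 and 6.07 in il15rb and 6.37, 6.70, 6.21 and 6.35 in PBS ip. The groups were apart by a small margin, and the change of -0.35 ± 0.14 (SE) did not pass (unadjusted p = 0.0147, adjusted p = 0.93, limma). An antibody to the protein need not alter this RNA, so the value does not check the labels. Il15 was 8.38, 8.45 and 8.40 in il15rb and 8.47, 8.49, 8.64 and 8.51 in PBS ip, a change of -0.12 ± 0.16 (SE, adjusted p = 1.0) that turned sign to 0.03 with replicate numbers as a block. Of 18 tested genes of the IL-15 and common gamma receptor list, 0 were called by either fit, 2 (Il2rb and Il15) were lower without overlap, 2 had an unadjusted p under 0.05, and the median was -0.11. Over all genes, 4.3% were lower without overlap and 2.81% were lower at that unadjusted p, and 14 of the 18 members were negative.

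Interferon-induced antiviral genes separated the arrays almost completely. Of 32 tested members, 31 were negative and 30 were lower on every il15rb array than on every PBS ip array, against 4.3% of all genes, with 1 called over all grouped arrays, 12 called with week 5 arrays alone and a median of -0.68. The called gene, Ddx60, a helicase that helps sense viral RNA, was 5.51, 5.50 and 6.25 in il15rb and 7.67, 8.24, 7.15 and 7.26 in PBS ip. The il15rb arrays lay below every PBS ip array, and the sham mean of 6.44 ± 0.43 (SD, n = 4) lay nearer to them than to PBS ip. Il15rb and sham overlapped, with sham replicate 2 at 6.14. Ddx60 fell by 1.83 ± 0.36 (SE), 3.55-fold (adjusted p = 0.0217, limma over all grouped arrays).

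Many genes of this kind carry in their promoters the interferon-stimulated response element, bound by the factors that type I interferon activates. RefSeq promoter windows of 300 bases around the start (build GRCm38.p6) were searched on both strands for GAAANNGAAA (that element), for TTCNNNGAA (the palindrome that STAT dimers bind) and for GGTGTGA (a T-box motif). The windows of Ddx60 (chr8:61927837-61928136, plus strand), Ifit1 (chr19:34640639-34640938, plus strand) and Oas1a (chr5:120907476-120907775, minus strand) are printed as examples with 2 matches each to the interferon element, which the window of Ifitm3 also holds. That of Nkg7 (chr7:43436888-43437187, plus strand) is printed as a called cytotoxic gene that holds both other motifs. Capitals mark matches to any of the 3 motifs, and sequences run 5' to 3' on the gene's strand.
Ddx60: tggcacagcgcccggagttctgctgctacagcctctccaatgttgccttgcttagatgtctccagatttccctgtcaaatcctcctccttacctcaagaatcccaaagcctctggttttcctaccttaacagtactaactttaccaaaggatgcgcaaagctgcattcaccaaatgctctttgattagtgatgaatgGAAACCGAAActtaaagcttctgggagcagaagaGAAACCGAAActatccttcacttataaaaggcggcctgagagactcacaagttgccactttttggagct
Ifit1: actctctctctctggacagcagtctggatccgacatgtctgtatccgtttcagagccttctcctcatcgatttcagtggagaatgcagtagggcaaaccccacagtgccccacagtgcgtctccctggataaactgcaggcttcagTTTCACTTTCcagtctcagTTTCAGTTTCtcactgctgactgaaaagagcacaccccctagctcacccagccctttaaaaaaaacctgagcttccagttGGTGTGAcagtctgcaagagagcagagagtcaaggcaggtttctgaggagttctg
Oas1a: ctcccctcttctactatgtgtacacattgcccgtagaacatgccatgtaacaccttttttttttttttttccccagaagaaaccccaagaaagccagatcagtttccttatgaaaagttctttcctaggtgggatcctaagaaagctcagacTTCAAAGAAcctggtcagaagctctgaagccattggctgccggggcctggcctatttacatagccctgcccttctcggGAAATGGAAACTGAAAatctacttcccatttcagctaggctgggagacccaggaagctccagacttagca
Nkg7: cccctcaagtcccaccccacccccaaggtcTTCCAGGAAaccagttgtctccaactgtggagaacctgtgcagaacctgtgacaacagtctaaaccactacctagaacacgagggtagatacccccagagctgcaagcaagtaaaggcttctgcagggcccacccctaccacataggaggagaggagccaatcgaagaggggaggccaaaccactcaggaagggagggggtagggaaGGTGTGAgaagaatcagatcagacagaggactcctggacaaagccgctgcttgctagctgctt
In Oas1a the matches to the interferon element overlap and run together with capitals, and Ifit1 also holds a T-box match near its start. The interferon element was found in 3.44% of all 32851 windows, in a window of 3.56% of the tested genes that have one (388 of 10909) and of 9 of the 39 genes (23.1%) lower in the fit on week 5 arrays that have one. The STAT palindrome was found in 8.3% of all windows, for 8.35% of the tested genes and for 8 of the same 39 genes (20.5%). The T-box motif was found in 3.98% of windows, for 4.24% of the tested genes and for 2 of the 39 (5.13%). A match is a description of letters in these windows. The table held windows for 6 of the 10 genes called over all grouped arrays, without Trgv4, Ctsw, Cd7 and Klrd1, and 1 of the 6 held each motif.

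Ifit1, which blocks translation of viral RNA and whose window is printed above, was 5.95, 6.10 and 6.50 in il15rb and 9.14, 8.0, 7.81 and 7.69 in PBS ip. PBS ip replicate 2 was highest, and the sham mean of 6.72 ± 0.32 (SD, n = 4) was close to the il15rb arrays. Ifit1 changed by -1.98, 3.94-fold. With week 5 arrays the SE was 0.31 and the change passed (adjusted p = 0.0241, limma). Over all grouped arrays the SE was 0.44 and the change did not pass (adjusted p = 0.0594, limma). Oas1a, an enzyme that makes the activator of RNase L, was 8.16, 8.40 and 8.71 in il15rb and 9.86, 9.72, 9.33 and 9.29 in PBS ip (-1.13, adjusted p = 0.0243 with week 5 arrays). Zbp1, a sensor of unusual nucleic acids, was 6.56, 6.68 and 6.56 in il15rb and 8.75, 8.37, 8.15 and 7.91 in PBS ip (-1.69, adjusted p = 0.00374 with week 5 arrays, 0.0634 over all grouped arrays), and its other probe set above background changed by -0.45. Rtp4, a receptor transporter induced by interferon, was 7.71, 8.30 and 8.34 in il15rb and 10.52, 9.95, 9.20 and 9.30 in PBS ip (-1.63, adjusted p = 0.0453 with week 5 arrays).

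Within the week 5 fit the smallest adjusted p belonged to Ifi44l, an interferon-induced gene, with 6.61, 6.16 and 6.57 in il15rb and 7.78, 7.73, 7.75 and 7.69 in PBS ip (-1.29, adjusted p = 0.00321, limma). The 4 PBS ip arrays were almost level, and the sham mean of 6.91 ± 0.16 (SD, n = 4) lay between the groups. Trim30a, an interferon-induced ubiquitin ligase family member, was 7.01, 7.19 and 6.97 in il15rb and 8.32, 8.41, 8.27 and 8.08 in PBS ip (-1.22, adjusted p = 0.00374). Ifitm3, which blocks virus entry and belonged to no list, was 11.07, 11.18 and 11.22 in il15rb and 11.81, 11.90, 11.70 and 11.80 in PBS ip (-0.64, adjusted p = 0.00435). Neither gene's arrays overlapped. Oasl2, an OAS-like protein, lay near the background in il15rb (4.91 to 5.10) and at 6.42 to 7.14 in PBS ip (-1.65, adjusted p = 0.00568).

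The immunity-related and guanylate-binding GTPases, which disrupt the vacuoles of intracellular microbes and are driven mainly by interferon gamma, had the lowest median of the lists described and a wide spread among the PBS ip arrays. Iigp1 was 7.62, 8.51 and 7.61 in il15rb and 12.93, 12.48, 9.24 and 9.62 in PBS ip. PBS ip replicates 2 and 3 were far above replicates 4 and 5, and these were close to the sham mean of 9.10 ± 0.36 (SD, n = 4). The change of -3.16 ± 0.69 (SE), 8.91-fold, was the largest fall by the rule for naming and missed the threshold (adjusted p = 0.0527, limma over all grouped arrays). The same division of PBS ip was seen in Igtp (12.59, 11.43, 9.02 and 9.27 against 8.28, 8.81 and 8.35 in il15rb) and Irgm2 (11.66, 10.67, 8.25 and 8.65 against 6.91, 8.15 and 7.47). Their changes were -2.10 (adjusted p = 0.295) and -2.30 (adjusted p = 0.15). Gbp6 changed by -1.87 (adjusted p = 0.422), Irgm1 by -1.67 (0.29), Gbp3 by -1.45 (0.253) and Gbp2 by -1.34 (0.422).

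The GTPase list had 12 tested members, among them Ubd, a ubiquitin-like modifier and not a GTPase (-0.75 ± 0.50 SE, near the background in il15rb). All 12 had a negative change and 11 were lower on every il15rb array, against 4.3% of all genes. Over all grouped arrays 0 were called, with 10 lower at an unadjusted p under 0.05 (2.81% of all genes). With week 5 arrays 1 was called, Ifi47 (-1.84, adjusted p = 0.0388, limma). The list's median was -1.56, and -1.06 without PBS ip replicate 2. Ifi47 itself was 7.93, 8.52 and 8.05 in il15rb and 10.52, 10.65, 9.14 and 9.73 in PBS ip. The mean of the 12 genes was 7.41, 7.85 and 7.58 on the il15rb arrays, 10.63, 9.88, 8.19 and 8.47 on the PBS ip arrays and 8.03 to 8.56 on the sham arrays, so that 2 of the PBS ip arrays lay within the range of sham. The mean of the 32 antiviral genes was 7.36 to 7.49 in il15rb, 8.08 to 8.55 in PBS ip and 7.56 to 7.84 in sham, with no overlap among the 3 groups.

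**Figure D3:**
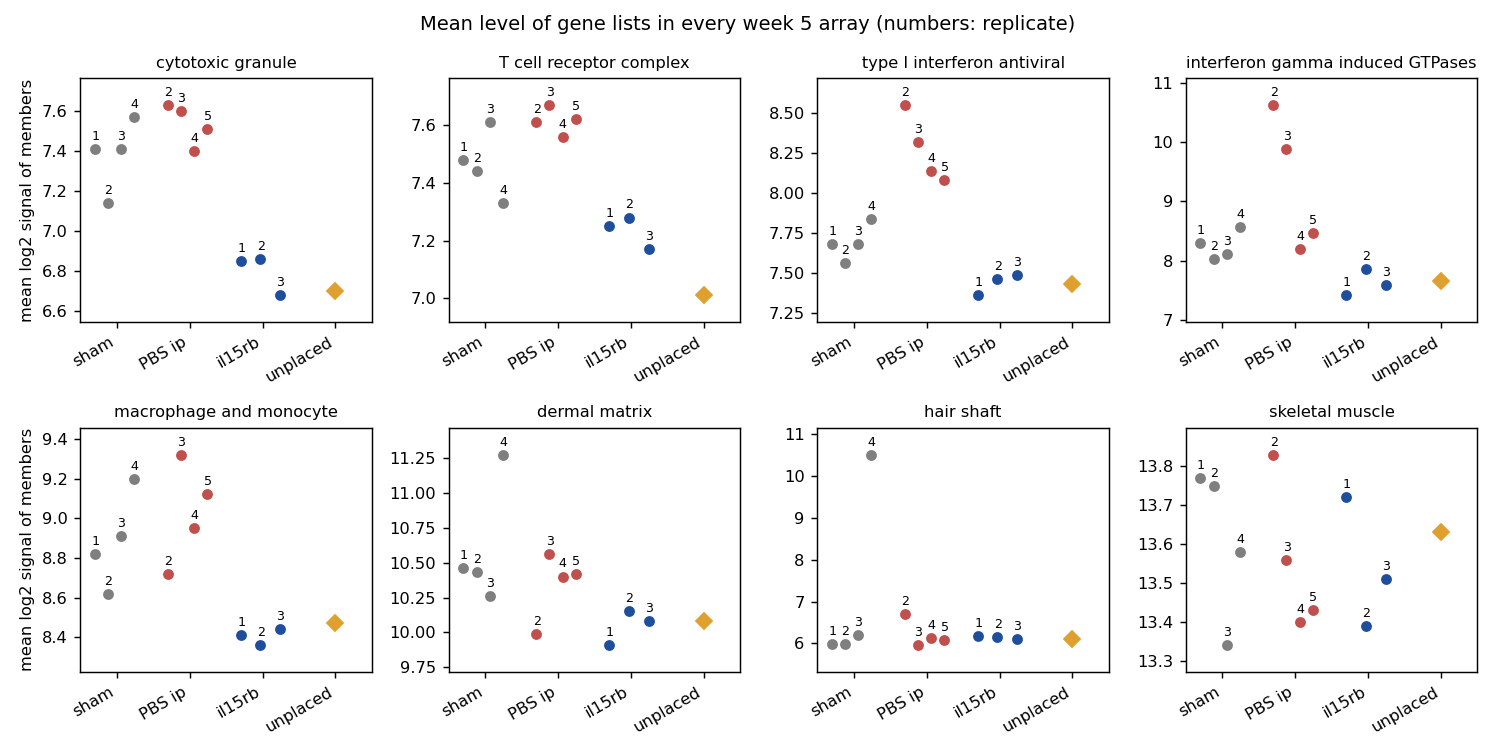
Mean log2 signal (y axis) of the tested members of each gene list on each week 5 array, with the replicate number beside each point, for sham, PBS ip, il15rb and the array with conflicting labels. The GTPase mean runs from 7.41 to 7.85 in il15rb and from 8.19 to 10.63 in PBS ip, and the antiviral mean from 7.36 to 7.49 and from 8.08 to 8.55.

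Of the chemokines that draw T cells and monocytes, 3 were called lower with week 5 arrays. Cxcl9, which interferon gamma induces and which binds CXCR3 on T cells, was 5.67, 6.23 and 6.07 in il15rb and 9.05, 8.70, 7.64 and 8.15 in PBS ip. The lowest PBS ip array lay far above the highest il15rb array. Cxcl9 changed by -2.40, 5.26-fold. With week 5 arrays the SE was 0.43 and the change passed (adjusted p = 0.0453, limma). Over all grouped arrays the SE was 0.69 and the change did not pass (adjusted p = 0.327, limma). The monocyte attractants Ccl12 (-1.42, adjusted p = 0.0243) and Ccl7 (-0.95, adjusted p = 0.0414) fell in the fit on week 5 arrays. Cxcl10, the other main CXCR3 ligand, was 6.94, 7.07 and 7.01 in il15rb and 8.14, 8.26, 7.46 and 8.19 in PBS ip, apart but not called (-1.01, adjusted p = 1.0 over all grouped arrays), and Ccl8 changed by -1.07 (adjusted p = 0.609). Ccl5, a chemokine that activated T cells release, overlapped between the groups (-0.85 ± 0.47 SE, adjusted p = 1.0). Of 13 chemokines, 11 were negative and 6 were lower without overlap, against 4.3% of all genes. Over all grouped arrays 0 were called, with 5 lower at an unadjusted p under 0.05 (2.81% of all genes), and the median was -0.63. Ifng itself lay near the background in both groups. Its transcription factors Irf1 (-0.75, adjusted p = 0.327) and Irf8 (-0.70, adjusted p = 0.475) were each lower without overlap. They were the only such members among 9 of the interferon gamma list, against 4.3% of all genes. Of the 9, 0 were called and 2 were lower at an unadjusted p under 0.05 (2.81% of all genes).

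The death ligand Tnfsf10 (TRAIL), which kills by receptor-mediated apoptosis and is itself induced by interferon, was 7.40, 7.46 and 7.65 in il15rb and 9.26, 8.69, 8.12 and 8.34 in PBS ip. All PBS ip arrays were above all il15rb arrays, with PBS ip replicate 2 highest. Tnfsf10 fell by 1.10 ± 0.18 (SE), 2.14-fold (adjusted p = 0.00465, limma over all grouped arrays), and it was the gene of the 10 that did not pass with week 5 arrays (adjusted p = 0.111). Its other probe sets changed by -0.72 and -1.10. Of 10 tested death ligands and receptors it was the sole call, 3 were lower without overlap (4.3% of all genes), and the median was -0.05.

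No MHC class I presentation gene was called. All 17 tested members were negative and 12 were lower without overlap (4.3% of all genes), with 0 called by either fit, 10 lower at an unadjusted p under 0.05 (2.81% of all genes) and a median of -0.31. Psmb10, a catalytic subunit of the immunoproteasome, was 8.95, 9.20 and 9.01 in il15rb and 10.39, 10.01, 9.32 and 9.63 in PBS ip (-0.78, adjusted p = 0.254, limma over all grouped arrays). Psmb8, another such subunit, changed by -0.61 (adjusted p = 0.637) and Erap1, which trims peptides, by -0.53 (adjusted p = 0.39). Of 11 MHC class II genes 3 were lower without overlap (4.3% of all genes) and 0 were called. At an unadjusted p under 0.05, 1 was lower (2.81% of all genes), and the median was -0.13.

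Macrophage and monocyte genes gave calls only in the fit on week 5 arrays. All 23 tested members were negative, 15 were lower without overlap (4.3% of all genes), 0 were called over all grouped arrays (14 were lower at an unadjusted p under 0.05, against 2.81% of all genes), 4 were called with week 5 arrays and the median was -0.59. Aif1 (IBA1), an actin-binding protein of macrophages, was 6.38, 6.50 and 6.57 in il15rb and 7.69, 8.34, 7.54 and 7.79 in PBS ip (-1.36, adjusted p = 0.0305 with week 5 arrays, limma). C1qb and C1qc, chains of the complement component that macrophages make, changed by -0.86 (adjusted p = 0.011) and -0.95 (0.0386), and Fcer1g, the signalling chain of Fc receptors, by -0.60 (0.0388). Ccr2, the receptor by which monocytes enter tissue, was 6.05, 6.28 and 6.82 in il15rb and 7.02, 8.21, 7.62 and 8.03 in PBS ip, without overlap and not called (-1.34, adjusted p = 0.254 over all grouped arrays). The general macrophage markers moved less: Csf1r, the growth factor receptor, overlapped (-0.12), as did Cd68 (-0.49), and Adgre1 (F4/80) changed by -0.34, none of them called. The list's mean was 8.36 to 8.44 in il15rb, 8.72 to 9.32 in PBS ip and 8.62 to 9.20 in sham, and its part in the T cell and interferon results was not tested.

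Of the 50 genes lower in the fit on week 5 arrays, 33 belonged to a list and 17 to none. Among the 17 were Sash3, an adaptor of lymphocytes, at 6.96 to 7.01 in il15rb and 7.76 to 8.28 in PBS ip (-0.96, adjusted p = 0.0059, limma on week 5 arrays). Mgl2 and Cd209g, C-type lectins of dermal macrophages and dendritic cells, changed by -1.20 (adjusted p = 0.0386) and -0.91 (0.0119). Calml4, a calmodulin-like gene, was 7.56, 7.62 and 7.64 in il15rb and 8.61, 8.74, 9.09 and 8.90 in PBS ip (-1.23, adjusted p = 0.0108). The il15rb arrays of Calml4 lay close to each other and far below PBS ip.

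Lists of other skin compartments held 0 genes called at week 5 over all grouped arrays. Krt14, the basal keratinocyte keratin, lay between 12.91 and 13.33 on the 7 arrays, and the Langerhans cell markers Cd207 and Epcam changed by 0.04 and -0.06. Of 14 hair shaft genes 1 was lower without overlap, against 4.3% of all genes, and 0 were called, with a median of -0.05. The keratin Krt31 was below the table's median, at 5.89 to 6.39, on all 7 arrays. Skeletal muscle (12 genes, median -0.02) and adipocyte lists (9 genes, median 0.00) had 0 calls. Of 14 dermal matrix genes 13 were negative (median -0.35) with 0 non-overlapping, and their mean was 9.91 to 10.15 in il15rb and 9.99 to 10.56 in PBS ip. Of 16 epidermal differentiation genes 3 were higher without overlap (median 0.04), and of 6 sebaceous gland genes 2 were higher (median 0.30), against 3.58% of all genes. Pdgfra, the growth factor receptor of fibroblasts, was 9.89 ± 0.15 (SD, n = 3) in il15rb and 10.63 ± 0.49 (SD, n = 4) in PBS ip, whose replicate 2 (9.92) sat among the il15rb arrays (-0.74, adjusted p = 0.437, limma). The genes Cd79a, Cd79b and Ms4a1, which mark B cells, were too low to be tested.

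Few genes were called higher under il15rb. The 2 genes called higher with week 5 arrays were Errfi1, an inhibitor of the EGF receptor, at 11.48, 11.27 and 11.76 in il15rb and a mean of 10.78 ± 0.16 (SD, n = 4) in PBS ip, and Ddit4 (REDD1), a brake on mTOR that glucocorticoids and stress induce, at 11.34, 11.34 and 11.42 against 10.72, 10.48, 10.78 and 10.61. Both rose by 0.72 (adjusted p = 0.0333 and 0.0345, limma on week 5 arrays) and neither passed over all grouped arrays (adjusted p = 1.0). Of 12 glucocorticoid and metallothionein genes, 4 were higher without overlap, against 3.58% of all genes, and the median was 0.35. Over all grouped arrays or with week 5 arrays 0 were called. At an unadjusted p under 0.05 over all grouped arrays, 1 was higher (1.21% of all genes). The list included Zbtb16 (0.87 ± 0.38 SE) and Tsc22d3 (0.68 ± 0.41 SE), both induced by glucocorticoid. Its mean was 11.36 to 11.63 in il15rb, 10.95 to 11.22 in PBS ip and 10.72 to 10.97 in sham. The list's median was also positive for PBS ip minus sham, at 0.33. The largest rise by the rule for naming, Mybph, a muscle myosin-binding protein, was 12.14, 9.89 and 9.88 in il15rb and 9.77, 9.22, 8.20 and 8.35 in PBS ip. Replicate 1 was the highest il15rb array, the change was 1.75 ± 0.63 (SE, adjusted p = 0.792), and Mybph ranged over a similar span in sham (SD 1.60). The other 9 rises named by that rule were between 0.30 and 0.73, with adjusted p-values of at least 0.313.

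**Figure D4:**
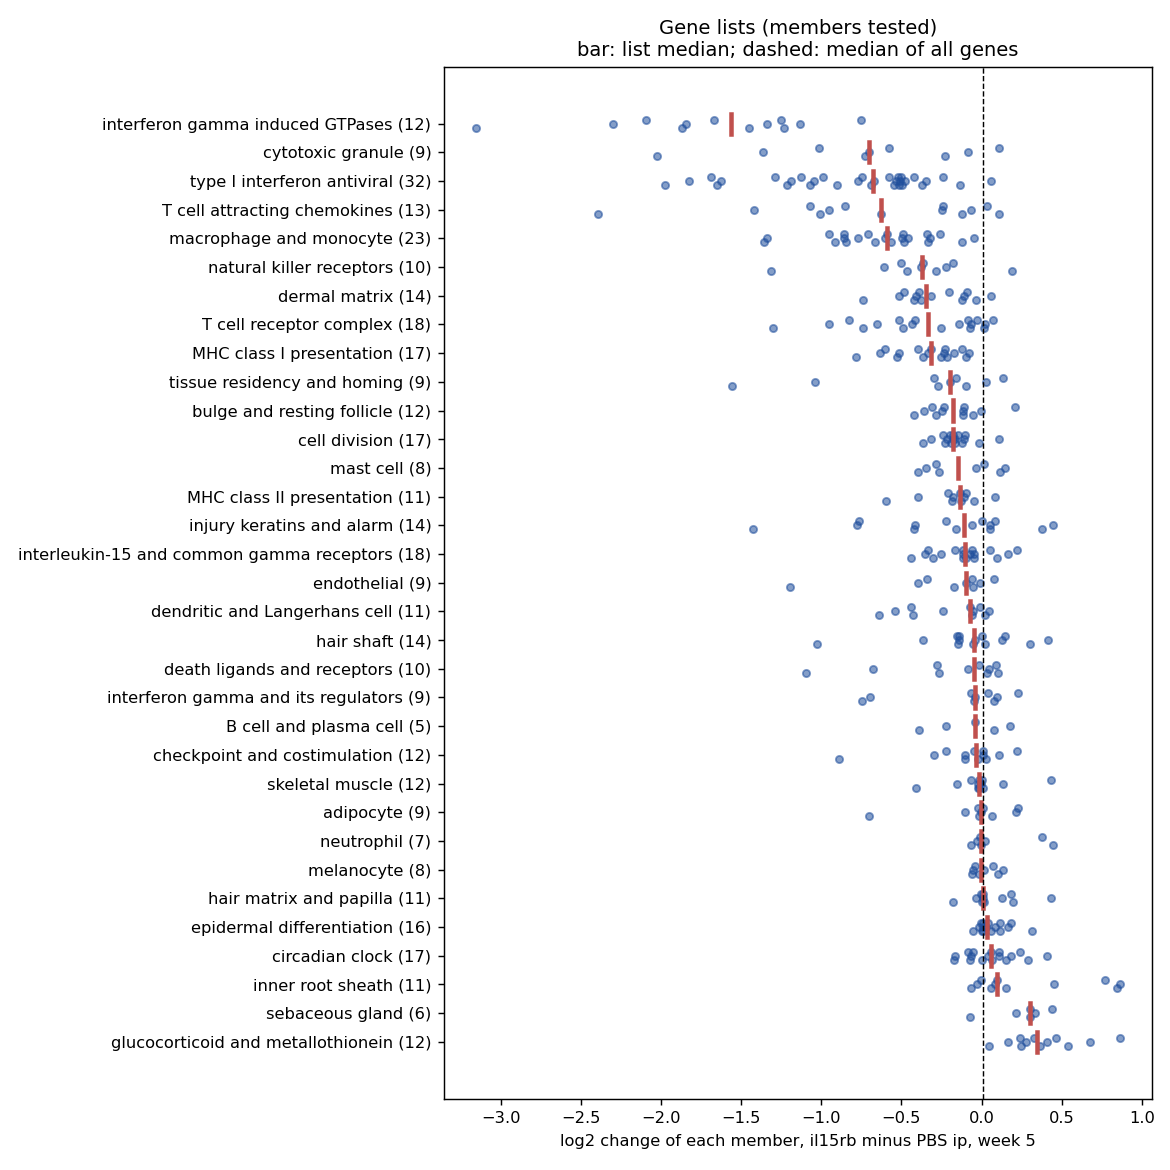
Log2 change of il15rb against PBS ip at week 5 (x axis) of each tested member, 1 row per gene list with the number tested, a bar at the list's median and a dashed line at the median of all genes. The GTPase (-1.56), cytotoxic granule (-0.70), antiviral (-0.68) and macrophage (-0.59) medians lie left of the line, and the glucocorticoid and metallothionein median (0.35) lies right of it.

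The sham arrays show where the PBS ip arrays stood, and the comparisons with sham share arrays with the main one, so their values are given side by side only. Cd247 was 6.85 ± 0.23 (SD, n = 4) in sham, a change of -0.56 for il15rb minus sham (adjusted p = 0.0764, limma over all grouped arrays) and of 0.27 for PBS ip minus sham (0.915). Klrd1 was 7.02 ± 0.22 in sham, and il15rb minus sham was -1.09 (adjusted p = 0.0764). Nkg7 was 8.30 ± 0.23 in sham, with -0.90 for il15rb minus sham (adjusted p = 0.176) and 0.47 for PBS ip minus sham (1.0). For these lymphocyte genes the sham mean lay nearer to PBS ip than to il15rb. Ddx60 was -0.69 for il15rb minus sham (adjusted p = 0.462) and 1.14 for PBS ip minus sham (0.515). None of the 10 genes passed the threshold in il15rb against sham or in PBS ip against sham. Gzmc, which is not among the 10 and lay near the background in il15rb, did pass in il15rb against sham (-2.3, adjusted p = 0.0335, limma). Its PBS ip minus sham value was -0.27.

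Week 13 gave the same contrast in 6 other arrays, in which far more genes differed: limma called 1453 lower (10.6%) and 2059 higher (15.1%), with 58.6% of the calls higher and 51.4% after quantile normalization between arrays. Tissue makeup also differed there. The mean of the muscle list was 13.16 to 13.57 in il15rb and 7.33 to 12.82 in PBS ip, that of the adipocyte list 11.29 to 11.68 and 9.37 to 10.40, and that of hair shaft genes 6.05 to 9.72 and 7.68 to 11.03. The part of these differences in the week 13 values was not tested. Without PBS ip replicate 3 the total of 3512 calls became 1812, without PBS ip replicate 1 it became 2034 and without il15rb replicate 3 it became 2205.

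All 10 genes called at week 5 were negative at week 13 and 8 of them (80.0%, against 10.6% of all genes) were called lower there, with a median of -1.33. The same estimate of spread for each gene served both weeks, so the calls of week 13 are not independent of those of week 5. Cd3g was -1.67 (adjusted p = 9.96e-06), Nkg7 -2.39 (3.71e-07), Cxcr6 -2.67 (7.03e-07), Klrd1 -2.68 (2.29e-08) and Ctsw -2.11 (9.74e-09, limma over all grouped arrays). Cd247 (-0.38, adjusted p = 0.0459), Tnfsf10 (-0.52, 0.048) and Cd7 (-0.45, 0.03) were also called. These 3 calls rested on single arrays: without PBS ip replicate 3 of week 13 their adjusted p-values were 0.337, 0.114 and 0.0688, and Cd247 lost its call without any of 4 of the 6 week 13 arrays, Tnfsf10 without any of 5 and Cd7 without any of 4. Trgv4 (-0.27, adjusted p = 0.344) was not called, and Ddx60 (-0.98, 0.057) was called only without il15rb replicate 3 of week 13 (0.0424). Of the 50 genes lower in the fit on week 5 arrays, 26 (52.0%) were called lower and 3 (6.0%) higher at week 13, against 10.6% and 15.1% of all genes.

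Whether the effect of il15rb differed between the weeks was tested by the interaction, which called 555 genes more negative at week 13 (4.07%) and 898 more positive (6.58%), a share of 61.8% positive that became 49.1% after quantile normalization. Of the 10 genes, 2 passed. For Ctsw the difference, week 13 minus week 5, was -1.10 ± 0.29 (SE, adjusted p = 0.0134) and for Klrd1 -1.36 ± 0.38 (SE, adjusted p = 0.0194). Without PBS ip replicate 3 of week 13 their adjusted p-values were 0.0639 and 0.108, and Klrd1 also lost its call without il15rb replicate 2 of week 5 (0.0573) or il15rb replicate 1 of week 13 (0.0584), and Ctsw without il15rb replicate 3 of week 13 (0.0505). The other 8 did not pass, which does not show that their effects were equal.

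Several genes of activated cytotoxic T cells, uncalled at week 5, differed between the weeks. Cd8a was 7.18, 6.66 and 6.84 in il15rb and 9.03, 8.56 and 9.60 in PBS ip at week 13, a change of -2.17 (adjusted p = 4.06e-09) and an interaction of -2.24 (adjusted p = 6.79e-06, limma). Week 13 arrays did not overlap, where those of week 5 did. Gzmb had an interaction of -3.37 (adjusted p = 0.000184) and Ccl5 of -3.16 (0.00336). Il2rb was 5.96, 5.88 and 5.73 in il15rb and 7.41, 7.17 and 7.63 in PBS ip at week 13, with an interaction of -1.19 (adjusted p = 0.000264). Hcst was -1.08 (adjusted p = 0.00736) by the same test.

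Other genes had a more positive effect at week 13. Calml4, Cd209g and Mgl2, lower in il15rb at week 5 with week 5 arrays, were higher at week 13 by 1.65 (adjusted p = 0.000992), 1.63 (0.000115) and 0.99 (0.0298), and their interactions were 2.88 (adjusted p = 0.000359), 2.54 (0.000141) and 2.18 (0.0027, limma over all grouped arrays). The week 13 rise of Mgl2 lost its call without any of 5 of the 6 arrays of that week (0.59, adjusted p = 0.277, without PBS ip replicate 3). Pdgfra had an interaction of 1.34 (adjusted p = 0.00835). By list, cytotoxic granule genes had a median of -0.70 at week 5 and -2.11 at week 13 (8 of 9 called lower, against 10.6% of all genes). The T cell receptor list had -0.33 and -0.90 (17 of 18), and the GTPase list, which includes Ubd, -1.56 and -2.06 (12 of 12). MHC class I genes had -0.31 and -0.86 (16 of 17) and chemokines -0.63 and -1.27 (9 of 13). The antiviral list had -0.68 and -0.61 (15 of 32 called lower, 0 interactions), and the macrophage list -0.59 and 0.04 (4 called lower and 2 higher of 23). Of all genes, 10.6% were called lower and 15.1% higher at week 13. The macrophage counts lay near these shares and are not read as a result about that list. The interaction called 4.07% of all genes more negative and 6.58% more positive. Differences between weeks were not tested for a list as a whole.

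**Figure D5:**
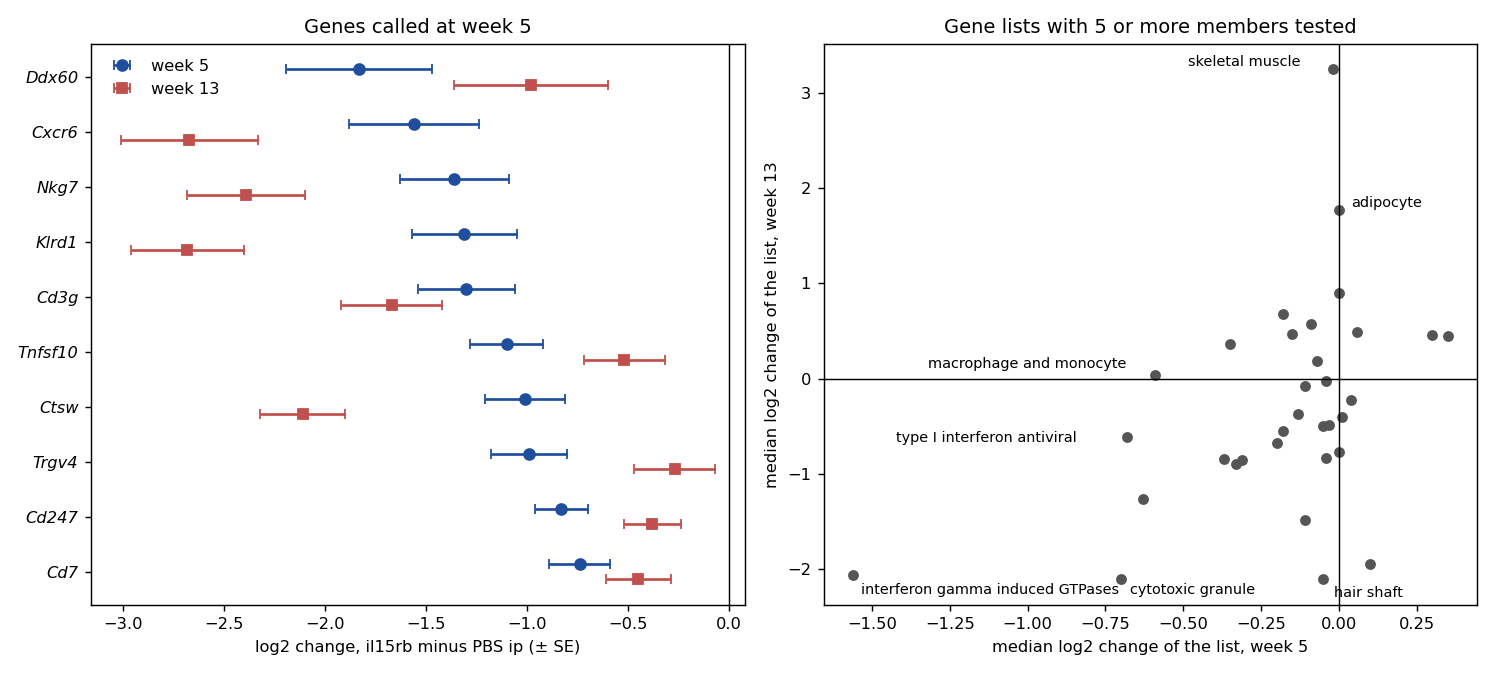
Left, log2 change of il15rb against PBS ip with its SE (x axis) at week 5 and week 13 for the 10 genes called at week 5; right, the median log2 change of each gene list at week 5 (x axis) and week 13 (y axis). Trgv4, Ddx60, Cd247, Tnfsf10 and Cd7 lie nearer to 0 at week 13 than at week 5, and the other 5 genes lie farther from it.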

How the data were processed

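The deposited table holds log2 signals of 45101 probe sets on 48 arrays, which the authors computed with RMA (named, without a version, in the submitters' processing notes). RMA corrects background, quantile-normalizes and summarizes probes, which can compress large differences. The number of arrays limits the precision. Titles and treatment labels gave the groups, and 1 array whose labels conflict was placed in none. A single gene was named by 34958 probe sets, several by 932 and none by 9211. Symbols of 34754 probe sets were brought up to date through Entrez identifiers. For a gene with several probe sets, that of highest mean stood for it (18194 genes). Testing was limited to 13650 genes that exceeded the table median (6.70) on 3 or more arrays. Near background means under 5.43, the highest 25th percentile of a week 5 array.

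Limma 3.58.1 (R 4.3.3) was run on the 47 grouped arrays with a mean for each group and moderated variances. Benjamini-Hochberg adjustment covered all genes tested, and the threshold was 0.05. A second fit used the week 5 arrays alone. The scripts were tested on simulated data. Alternatives were another normalization, filter, probe set rule, spread model, sample set, placement of the conflicting array, the replicate number as a block, and leaving out each array. Leaving out arrays within the week 5 fit was added after seeing the data. The p-values measure the spread between these arrays.

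The members and gene lists were chosen with earlier results of these data known. Named genes were all genes called over all grouped arrays, the 10 largest falls and rises with an unadjusted p under 0.01 and no overlap, up to 6 members of smallest unadjusted p in each list described, and Il2rb and Il15. The remaining named genes, among them those called only with week 5 arrays, Cd8a, Gzmb, Oas1a and the genes with an interaction, were chosen after their values were seen. Some items are not reported here.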

Additional observations from a re-analysis of the deposited data

Results flagged for a closer look

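Each result here stood out by a fixed rule: either 1 array of a group of 4 lay farther from the others, relative to the range of the group, than the critical value of Dixon allows, which chance produces in about 1 of 20 groups, or the effect of il15rb differed between weeks 5 and 13 by the interaction test of limma (adjusted p under 0.05). The array rule was applied to PBS ip and sham for many genes, and to PBS ip for list means and array checks. With so many groups screened, some flags would arise by chance. The explanations of these values were not tested.

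The array PBS ip replicate 5 had Xist at 7.01 (gap over range 0.946). In PBS ip, Klrd1 was high in replicate 3 (7.53, gap over range 0.837) and Cxcl10 was low in replicate 4 (7.46, 0.85). In sham, Ddx60 was high in replicate 4 (7.08, 0.851), and replicate 2 stood apart in Psmb10 (9.18, 0.842), Zbtb16 (8.27, 0.889) and Sash3 (7.73, 0.952).

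The effect of il15rb was more negative at week 13 than at week 5 for Ctsw (-1.10), Klrd1 (-1.36), Gzmb (-3.37), Hcst (-1.08), Cd8a (-2.24), Il2rb (-1.19), Cxcl10 (-2.37), Ccl5 (-3.16) and Ltb (-1.17), the gene of lymphotoxin beta. It was more positive for Pdgfra (1.34), Zbtb16 (1.85), Calml4 (2.88), Cd209g (2.54) and Mgl2 (2.18). With each of the 13 arrays left out in turn, Gzmb, Hcst, Cd8a, Il2rb, Ccl5, Pdgfra, Calml4, Cd209g and Mgl2 kept an adjusted p under 0.05. Cxcl10 lost its call without any of 3 arrays (adjusted p up to 0.085, without PBS ip replicate 1 of week 13), Zbtb16 without any of 6 (up to 0.108) and Ltb without any of 7 (up to 0.125, both without PBS ip replicate 3 of week 13).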

How the results depend on the processing

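The 10 genes called at week 5 became 6 after quantile normalization (4 of the 10 kept), 469 with array quality weights, 52 with week 5 arrays only (9 kept), 39 with the 7 arrays only (6 kept), 1 with the conflicting array placed in PBS ip and 24 with it in il15rb. With the replicate number as a block 1 gene was called. Subtracting array medians gave 13, no filter 12, the stricter filter 9, the mean of probe sets 8, every probe set on its own 11 and an intensity trend 10. Leaving out 1 array gave 0 to 14 genes, and 16 to 96 in the fit on week 5 arrays. Quality weights raised the week 13 count from 3512 to 6352 and the interaction count from 1453 to 5211, and leaving out 1 array gave 1812 to 4377 and 624 to 2622. The replicate block gave 736 interactions. The numbers do not pair the samples: after subtracting the mean of each group, same-numbered arrays correlated at 0.018 and 0.236 at week 5 and at -0.492 to -0.22 at week 13.

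Values near 0 turned sign. Cd8a was -0.056 with the mean of probe sets, -0.211 with the replicate block, -0.027 with the conflicting array in il15rb and between -0.057 (without il15rb replicate 1) and 0.174 (without il15rb replicate 3) when 1 array was left out. Gzmb ranged from -0.19 (without PBS ip replicate 5) to 0.051 (without PBS ip replicate 3). Il15 was 0.029 with the block and Cd4 0.06 with the mean of probe sets. Over all alternatives, values of single genes kept direction and side of the threshold in 2063 cases, gained a call in 124, lost one in 175 and reversed in 8, and list medians moved by over 1 SD in 33 of 700. The cause of these changes was not tested. With 3 and 4 arrays a group, signals near background give only a lower limit to a fold.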

Other observations

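The array titled PBS ip replicate 1 of week 5, whose treatment label reads IL15, was in no comparison. Its mean level of the cytotoxic granule list was 6.70, against 6.68 to 6.86 in il15rb and 7.40 to 7.63 in PBS ip. The T cell receptor list stood at 7.01 (7.17 to 7.28 in il15rb and 7.56 to 7.67 in PBS ip), the antiviral list at 7.43 (7.36 to 7.49 and 8.08 to 8.55), the GTPase list at 7.66 (7.41 to 7.85 and 8.19 to 10.63) and the macrophage list at 8.47 (8.36 to 8.44 and 8.72 to 9.32). Its Gapdh 3' minus 5' difference was 0.14, where il15rb had 0.38 to 0.46 and PBS ip 0.13 to 0.27. These are values of 1 array, and they do not settle which label is right.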
